A study of Mus musculus with 14 samples.

Results

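Macroscopic adenomas were set against colon on 6 of the 14 arrays of the series, 3 per group, with the groups taken from the tissue given in the sample labels. The adenomas (adenoma replicates 1 to 3) carry the strain label APCmin/+, that is, mice with 1 mutant copy of *Apc*, and the colon samples (colon replicates 1 to 3) the label C57BL/6J. Both groups were tissue rather than sorted cells, no treatment is given, and the region of the intestine from which the adenomas were cut is not given. The study speaks of colon mucosa in its design, so how much of the gut wall the colon pieces held is not known. The methods of the study describe the wild type animals as adult and put all mice on a C57BL/6J background. A list of animals kept with the study assigns every adenoma sample to 1 APCmin/+ mouse, so that differences among adenoma arrays are those among pieces from 1 animal, while the colon samples came from different mice. By the same list 1 colon sample was taken from an APCmin/+ animal, which the labels do not show, and which colon array that is was not stated. The methods, too, speak of normal colon from APCmin/+ mice. Genotype, tumor and region of the gut therefore differ together between the groups and cannot be told apart here. For orientation, the levels in 3 arrays of small intestine from C57BL/6J mice are shown beside them, as values only. For some genes those in 2 arrays of tissue adjacent to adenoma, which the study took from APCmin/+ mice, are given too.

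The product of *Apc* belongs to the complex that marks beta-catenin for destruction, and cells that lose it keep beta-catenin, which acts with Tcf and Lef factors to turn on Wnt target genes. Mice with the Min allele develop adenomas mainly in the small intestine. Colonocytes absorb water and salt and take up the products of bacterial fermentation, whereas enterocytes of the small intestine digest and absorb fat, sugar and protein, and Paneth cells, which secrete antimicrobial peptides, sit in the crypts of the small intestine but not in normal mouse colon.

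A level is given throughout as the log2 of the background-subtracted signal minus the 75th percentile of its array (scaled log2 signal), and 3 values in a row stand for replicates 1, 2 and 3. Each gene was read from its brightest probe, levels of different genes are not compared, and the positions given are where its probe lies in NCBI37/mm9. On the 14 arrays, 46.8% (colon replicate 3) to 58.2% of probes gave a signal well above background, and the number of arrays limits the precision. Over the genes well above background on all 6 arrays, the median SD was 0.161 between adenomas (n = 3), 0.405 between colon arrays (n = 3) and 0.198 between colon replicates 1 and 2 (n = 2). The arrays lay on 2 slides, and both slides held arrays of both groups, though unevenly. Slide 1 held adenoma replicates 1 and 3 and colon replicate 2, and slide 2 held adenoma replicate 2 and colon replicates 1 and 3. A difference within a slide thus rests on 1 colon array (slide 1) or 1 adenoma array (slide 2). The Y-linked gene *Eif2s3y* had levels of -6.75, -6.77 and 2.95 in colon and of -6.42, -6.83 and -7.27 in adenomas, and *Xist*, the RNA of the inactive X chromosome, had 1.04, 0.76 and -5.69 in colon and 0.39, 0.42 and 0.44 in adenomas, so that colon replicate 3 alone among the 6 arrays carried a Y-linked transcript and lacked *Xist* above background. Of 5 sex-linked transcripts, 4 were well above background on colon replicate 3 and on small intestine replicate 1. On each other adenoma, colon and small intestine array it was 1.

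The colon label was checked first, because colon replicate 3 stood apart from the other colon arrays. Over 20832 probes well above background on all 14 arrays, its correlation across probes was 0.938 and 0.934 with colon replicates 1 and 2, which had 0.985 with each other, and 0.951 to 0.969 with the small intestine arrays. Of 18721 genes well above background on the 6 arrays, 268 lay over 3 log2 units above and 140 over 3 log2 units below the mean of the other colon arrays on colon replicate 3, against 28 and 121 on colon replicate 1 and 48 and 45 on colon replicate 2. *Car1*, the carbonic anhydrase of colonocytes, had levels of 7.40, 7.98 and -2.88 in colon. For *Aqp8*, a water channel of colon epithelium, they were 6.67, 7.01 and -4.40, and for *Hoxb13*, a transcription factor of the hindmost gut, 7.45, 5.84 and -5.57. All 3 genes were thus high on colon replicates 1 and 2 and low on colon replicate 3, where *Aqp8* and *Hoxb13* were not well above background. The converse held for genes of the small intestine. *Fabp6*, the bile acid binding protein of the ileum, had levels of 2.07, 1.65 and 11.34 in colon and 10.19, 1.84 and -1.51 in small intestine, and *Mttp*, which loads fat onto lipoproteins, had -2.78, -3.37 and 6.16 in colon and 6.14, 6.91 and 7.29 in small intestine. The median level of 10 Paneth cell genes was -5.29, -2.70 and 8.99 on the colon arrays and 9.51, 9.67 and 8.55 on the small intestine arrays. Some of the genes named below for the largest decreases, a choice that required every colon array to lie above every adenoma, showed another pattern. Colon replicate 3 lay with the other colon arrays, and above every small intestine array, for *Saa1* (7.72, 7.28 and 9.59 in colon, 0.092, -0.56 and -0.60 in small intestine), *B3galt5* (5.23, 5.72 and 4.84 in colon, -2.89, -2.16 and -2.58 in small intestine) and *St6galnac6* (7.09, 7.74 and 6.45 in colon, 1.54, 1.62 and 2.43 in small intestine). Results below are therefore given with all 3 colon arrays, and for most lists whose counts of called genes differ without colon replicate 3 they are given both ways. Calls gained without that array rest on colon replicates 1 and 2 alone. For colonocyte, enterocyte, Paneth cell and regional genes they follow in part from the levels for which it was set apart.

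**Figure D1:**
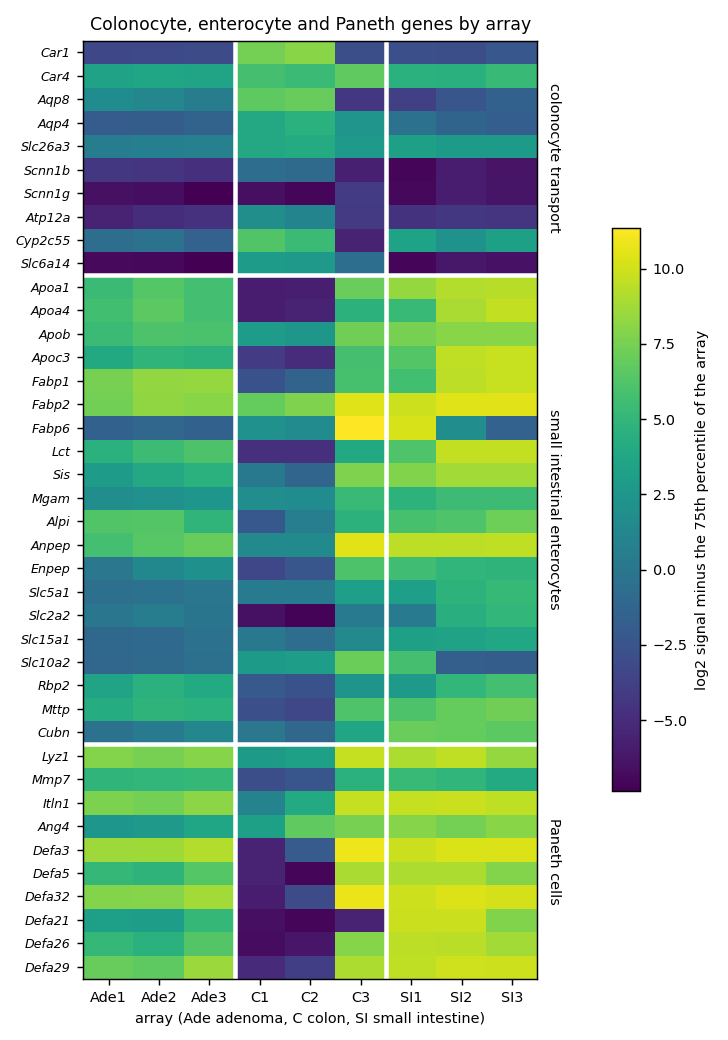
Scaled log2 signal (colour) of 10 colonocyte, 20 small intestinal enterocyte and 10 Paneth cell genes, 1 gene per line, on each adenoma (Ade), colon (C) and small intestine (SI) array; colours are to be compared along a line, not between genes. C1 and C2 were bright for colonocyte genes such as *Car1* and dark for most enterocyte and Paneth genes, whereas C3 showed the reverse for most genes and the adenomas were dark for *Car1* and bright for most Paneth genes.

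The genes on which colon replicate 3 lay farthest above both other colon arrays were *Defa-rs12*, *Defa-rs7*, *Defa1* and *Defa-rs10* (alpha-defensins, the antimicrobial peptides of Paneth cells), *Bcl2l15*, *Reg3a* (an antimicrobial lectin), *Ocm* (a calcium-binding protein), *Fabp6*, *Mttp* and *Anpep* (a brush border peptidase). Their levels on colon replicate 3 ran from 5.39 (*Ocm*) to 11.48 (*Defa1*), and none of these genes exceeded 2.07 on colon replicates 1 and 2. Alpha-defensin transcripts are nearly identical in sequence, and their probes may not tell the members apart. The genes on which it lay farthest below were *Car1*, *Sult1a1* and *Sult1c2* (sulfotransferases), *Thbs4* (a matrix glycoprotein), *Sycn* (a protein of secretory granules), *Best2* (an anion channel), *Car2* (another carbonic anhydrase), *Cela1* (an elastase) and *Fa2h* (a fatty acid hydroxylase). These genes were picked for the distance of that array and are a description of it.

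With all 6 arrays, 456 genes were higher and 344 lower in adenomas at a log2 difference of at least 1.2 and a limma adjusted p of at most 0.01, which is 2.08% and 1.57% of the 21938 genes tested. Groups did not overlap, in either direction, for far more genes, with all adenoma arrays above all colon arrays for 20.0% and below them for 18.8%. Without colon replicate 3, 1171 genes were higher (5.06% of 23149 tested) and 1517 lower (6.55%), and 28.9% and 30.7% did not overlap. Of the genes called with all arrays, 454 of 456 and 344 of 344 were also called without colon replicate 3. Among the genes called only without it, colon replicate 3 lay on the adenoma side of the mean of the other colon arrays for 575 of 717 higher and 1053 of 1173 lower genes. The median log2 difference over all genes tested was -0.0468 with all arrays and 0.0018 without colon replicate 3, which are the values to set beside the medians of gene lists given below. All 800 called genes had the same sign within each of the slides, which their selection on these same arrays made nearly certain and which is no check on slide. With slide as a block, however, 58 genes remained called as higher and 8 as lower, and without 1 adenoma array the counts were 15 higher and 1 lower (without replicate 1), 4 and 0 (without replicate 2) and 35 and 5 (without replicate 3). Without colon replicate 1 they were 120 and 19, and without colon replicate 2 277 and 75. Of the genes named below, *Gkn3*, *Hbb-bt* and *Aqp5* kept their calls whichever of the 6 arrays was left out. In unsorted tissue, fewer cells of a type and less RNA per cell cannot be told apart, which touches every difference given below.

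**Figure D2:**
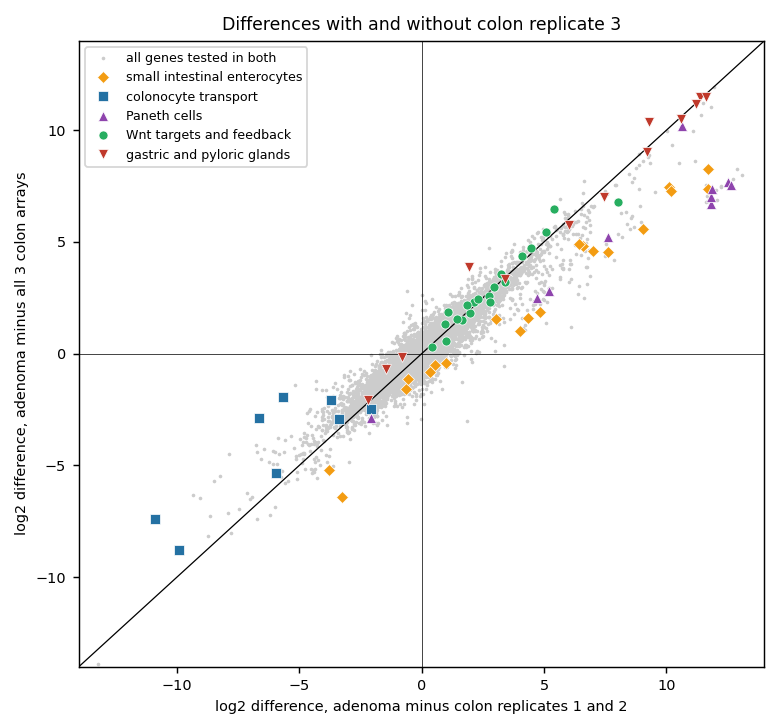
Log2 difference of each gene, adenomas minus all 3 colon arrays (vertical axis), against adenomas minus colon replicates 1 and 2 (horizontal axis); grey points are genes tested in both comparisons, symbols mark gene lists and the line marks equal values. Wnt target and gastric gland genes lie near the line, most enterocyte and Paneth cell genes lie below it on the right, and most colonocyte genes lie above it on the left.

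The largest increases among genes measured well on all 6 arrays were those of *Gkn3*, a gastrokine of stomach mucous cells, *Wfdc18*, a small secreted protein of the whey acidic protein family, *U46068* (the name the array gives), *Plat*, the tissue plasminogen activator, and *Hbb-bt*, a beta-globin. *Gkn3* (chromosome 6 from 87333375 to 87333434) had levels of 8.23, 8.85 and 7.89 in adenomas and -2.73, -1.78 and -1.95 in colon, and differences of 9.84 and 11.19 within slides 1 and 2. *Wfdc18* (chromosome 11 from 83524751 to 83524810) had levels of 8.33, 8.79 and 8.54 in adenomas and 1.54, 2.32 and -1.41 in colon, with colon replicate 3 the lowest, and its log2 difference was 7.74 ± 0.93 (SE, adjusted p = 0.00661) with all arrays and 6.63 without colon replicate 3. No adenoma array overlapped a colon array for either gene, which was a condition for naming the genes of this paragraph and the next. *Plat* (3.77, 3.44 and 3.47 in adenomas, -3.12, -1.44 and -3.0 in colon) differed by 6.08 ± 0.47 (SE, adjusted p = 0.0022), a 67.6-fold higher signal. *Prss12*, a serine protease also known from neurons, had closely spaced levels of 4.01, 4.11 and 4.07 in adenomas and -1.92, -2.42 and -1.12 in colon, a log2 difference of 5.88 ± 0.35 (SE, adjusted p = 0.00116). For *Gulo*, the enzyme of the last step of vitamin C synthesis, levels were 2.29, 2.71 and 3.02 against -3.09, -3.54 and -2.36, a difference of 5.67 ± 0.36 (SE, adjusted p = 0.00142). The adenoma arrays of these 3 genes lay close together and far above every colon array. *Slc4a11*, a membrane transporter, reached 3.61, 3.45 and 3.36 against -1.75, -2.39 and -2.19 and differed by 5.58 ± 0.23 (SE, adjusted p = 0.000532). *Lcn2*, the antibacterial lipocalin, had levels of 3.56, 4.14 and 4.71 in adenomas and -1.98, -1.69 and -0.34 in colon, a difference of 5.47 ± 0.51 (SE, adjusted p = 0.00333). *Ifitm1*, an interferon-induced membrane protein of stem cells, differed by 5.78 ± 0.51 (SE, adjusted p = 0.00286), and the near-identical values of *Gm7676* (5.72) may come from the same transcripts. In each of these genes the small intestine arrays lay below all adenoma arrays, with *Gkn3* at -1.54, -0.43 and 2.52 and *Wfdc18* at -3.31, -5.54 and 2.58. The arrays of adjacent tissue also lay below every adenoma, but came close for *Ifitm1* (3.70 and 5.36, against 6.15, 6.15 and 5.38 in adenomas).

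Among the genes with the largest decreases were 3 of the intestinal brush border or epithelium. *Mep1a*, a subunit of the brush border protease meprin (chromosome 17 from 43611284 to 43611343), had levels of 0.63, 1.19 and 1.65 in adenomas, 6.14, 6.37 and 6.89 in colon and 8.68, 6.31 and 5.33 in small intestine, a log2 difference from colon of -5.30 ± 0.34 (SE, adjusted p = 0.00138). *Tmigd1*, an epithelial adhesion protein (chromosome 11 from 76729684 to 76729743), had -3.08, -2.76 and -3.35 in adenomas and 2.71, 3.57 and 6.14 in colon, with colon replicate 3 the highest, and a difference of -7.21 ± 0.85 (SE) that was -6.21 without that array. *Slc13a2*, a transporter of citrate and dicarboxylates, had -0.73, 0.27 and 1.25 in adenomas and 4.87, 5.18 and 6.22 in colon, a difference of -5.16 ± 0.59 (SE, adjusted p = 0.00575). All adenoma arrays lay below all colon and all small intestine arrays for these 3 genes. The arrays of adjacent tissue also lay above every adenoma for *Mep1a* and *Slc13a2*, but *Tmigd1* had 2.36 and -3.49 there. *Sgk2*, a kinase, had levels of -0.09, 0.10 and -0.0026 in adenomas, 3.96, 4.66 and 5.24 in colon and 5.12, 3.99 and 5.29 in small intestine and likewise did not overlap with either tissue. *Prss30*, a serine protease, fell by a log2 difference of 4.76 (SE 0.58, adjusted p = 0.00685) and *Akr1c14*, a hydroxysteroid dehydrogenase, fell by 4.5 (SE 0.46, adjusted p = 0.00434), with the small intestine arrays again above every adenoma array in both genes. A different pattern was seen for *Saa1* and *B3galt5*, whose levels are given above for colon and small intestine. In adenomas *Saa1*, a serum amyloid A protein, had 0.79, 1.05 and 0.51, between the small intestine and colon arrays, and *B3galt5*, a galactosyltransferase, -0.27, -0.49 and -0.036, also between them. *Aqp4*, a water channel, had -1.95, -1.83 and -1.37 in adenomas, 3.90, 4.59 and 2.42 in colon and -0.29, -1.37 and -1.79 in small intestine, so that adenomas overlapped with small intestine. *St6galnac6*, a sialyltransferase, fell from 7.09, 7.74 and 6.45 in colon to 2.33, 2.53 and 3.01 in adenomas, a difference of -4.47 ± 0.38 (SE, adjusted p = 0.00268).

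**Figure D3:**
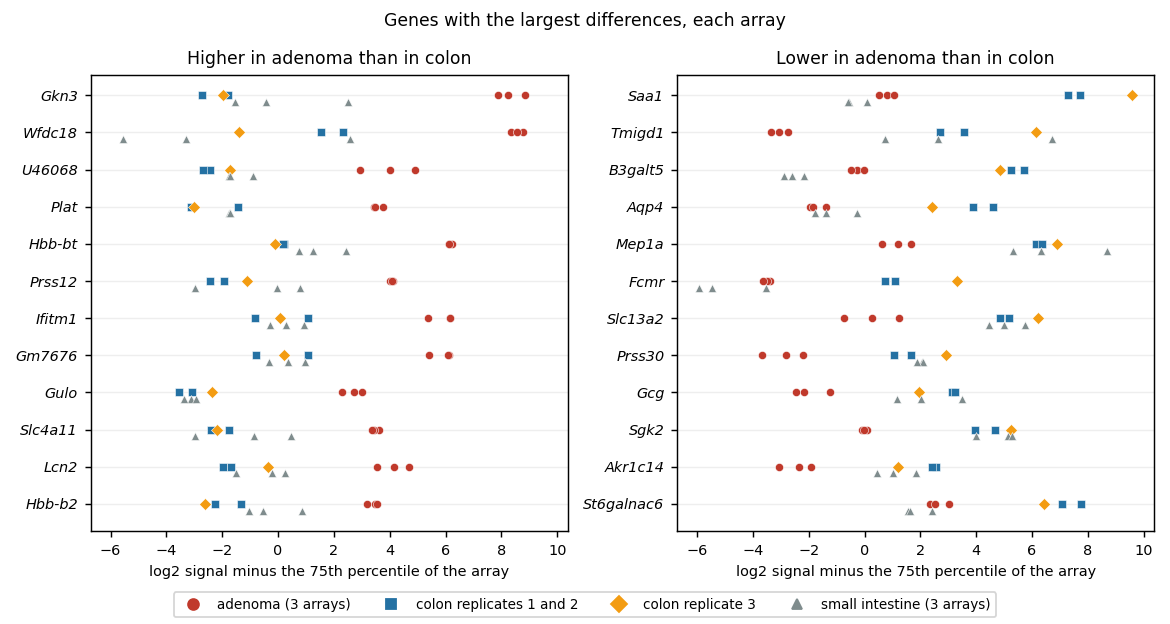
Scaled log2 signal on each array of the 12 genes with the largest increases (left) and decreases (right) among genes called and well above background on all 6 arrays; red circles are adenomas, blue squares colon replicates 1 and 2, the orange diamond colon replicate 3 and grey triangles small intestine. Genes were chosen among those without overlap between adenoma and colon arrays, and for genes such as *Mep1a* and *Sgk2* the small intestine lies on the colon side.

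Leaving out colon replicate 3 brought other genes to the top. Some of them, such as *Car1* and *Defa1*, are also named above for the distance of that array, so their place here follows in part from it. *Defa1* had levels of 9.28, 9.46 and 9.49 in adenomas, -3.73, -0.74 and 11.48 in colon and 9.84, 10.76 and 10.56 in small intestine, and differed by 7.07 ± 3.73 (SE, adjusted p = 0.275) with all arrays and by 11.64 ± 0.83 (SE, adjusted p = 0.000796) without that array. *Fabp1*, the fatty acid binding protein of liver and enterocytes, had 7.52, 8.32 and 8.35 in adenomas and -2.68, -1.43 and 5.88 in colon, and its difference went from 7.47 (adjusted p = 0.0758) to 10.12 (adjusted p = 0.000243). In both genes colon replicate 3 lay within 2 log2 units of the nearest adenoma and over 5 log2 units above the other colon arrays. The same held for *Adh6a*, an alcohol dehydrogenase, with 6.24, 6.85 and 6.04 in adenomas and -1.51, -2.92 and 5.04 in colon. *Lgals2*, a galectin, had 8.37, 8.69 and 8.48 in adenomas and 0.13, 0.89 and 8.50 in colon, and *Mmp7*, the protease that activates alpha-defensins, had 4.90, 5.04 and 5.06 in adenomas and -2.89, -2.37 and 4.59 in colon, again with colon replicate 3 at the level of the adenomas. *Gkn3* and *Tff2*, on which colon replicate 3 did not stand out, and *Mcpt1* completed the 8 genes with the largest increases. The genes most strongly lower without colon replicate 3 were *Car1* (adenomas -3.31, -3.21 and -3.11, log2 difference -10.90), *Cyp2d34*, a cytochrome P450 (adenomas -3.64, -3.77 and -4.5, log2 difference -9.35), *Best2* (adenomas -3.73, -4.12 and -4.16, log2 difference -9.05), *1810065E05Rik* (adenomas -0.96, -0.87 and -1.04, log2 difference -8.63), *Sycn*, *Sult1a1*, *Foxd2*, a forkhead transcription factor, and *Thbs4*. None of these 8 was called with all arrays, with adjusted p from 0.0121 (*1810065E05Rik*) to 0.341 (*Foxd2*). Colon replicate 3 lay within 1 log2 unit of the nearest adenoma in 6 of them and below every adenoma in *Foxd2* and *Thbs4*. In *1810065E05Rik* it lay between the adenomas and the other colon arrays, with 7.67, 7.67 and 3.59 in colon.

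Gene lists chosen with earlier results of these data known were used to order the remaining genes by role, and are described by the number of members called and the median log2 difference of those tested. Of 20 Wnt targets and feedback genes, 9 were higher in adenomas and none was lower, with a median log2 difference of 2.39, and 13 were higher without colon replicate 3. Adenoma arrays lay above every colon array for 18 of the 20, against 20.0% of all genes tested. *Nkd1*, a feedback inhibitor of Wnt signaling, had levels of 4.73, 5.02 and 5.34 in adenomas and 0.17, 0.93 and -0.21 in colon, a log2 difference of 4.73 ± 0.34 (SE, adjusted p = 0.00195). *Lef1*, one of the DNA-binding partners of beta-catenin, had 1.69, 1.99 and 2.15 and -3.27, -1.06 and -2.93 and differed by 4.37 ± 0.58 (SE, adjusted p = 0.00861). *Prox1*, a transcription factor turned on in intestinal tumors, had 0.69, 0.44 and 0.88 in adenomas and -4.13, -4.68 and -5.45 in colon, where 2 of 3 arrays were well above background, a difference of 5.42 ± 0.36 (SE, adjusted p = 0.0016). These genes did not overlap between the groups, and colon replicate 3 lay within 1 log2 unit of another colon array in each. The other called members were *Notum*, *Rnf43* and *Apcdd1* (inhibitors of Wnt signaling), *Tcf7* (another partner of beta-catenin), *Cd44* (a hyaluronan receptor) and *Tnfrsf19* (a receptor of the tumor necrosis factor family), with differences from 2.30 (*Rnf43*) to 3.58 (*Apcdd1*). *Wif1*, a secreted Wnt inhibitor, had 3.75, 4.06 and 4.96 in adenomas and -1.80, -0.48 and -4.33 in colon (log2 difference 6.46 ± 0.97, SE, adjusted p = 0.0117), and *Sp5*, a transcription factor target of Wnt signaling, 3.77, 4.37 and 4.52 and -5.00, -2.62 and -0.084 (6.79 ± 1.16, SE, adjusted p = 0.0176). Neither was called with all arrays and both were called without colon replicate 3, with adjusted p of 0.00179 and 0.00135. *Axin2*, often used to report Wnt activity, had 1.16, 0.30 and 1.42 in adenomas and -1.12, -0.26 and -0.24 in colon and a difference of 1.5 ± 0.39 (SE, adjusted p = 0.0585). All adenoma arrays exceeded all colon arrays for *Axin2*, as for 20.0% of all genes tested, though adenoma replicate 2 did so by little. The adjusted p did not pass the threshold.

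For a view of the DNA behind 2 of these genes, promoters from RefSeq (GRCm38.p6, 300 bases around each start site) were searched on both strands for ATCAAAG, the core of the sites that Tcf and Lef factors bind. Of the 20 listed genes 13 had a promoter in the table, and the letters were found in those of *Sp5* and *Tnfrsf19*, against 3.73% of all 32851 promoters. The 21 bases around each match follow, 5′ to 3′ along the strand of the gene with the match in capitals, at chr2:70474812-70474832 (plus strand) and chr14:61038176-61038196 (minus strand).
*Sp5*: aggccccCTTTGATcaggaaa
*Tnfrsf19*: atgggggATCAAAGtgacaaa
In *Sp5* the letters read in the reverse direction. A match describes the sequence alone, and binding was not measured. The count is one of genes and the share one of single promoters, so they are not in the same unit.

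Of 12 markers of intestinal stem cells, *Lgr5* and *Smoc2* were higher in adenomas. *Lgr5*, the R-spondin receptor of crypt base stem cells, had levels of 3.32, 3.22 and 3.62 in adenomas, 0.27, -0.22 and -0.72 in colon and 0.49, -0.33 and -0.87 in small intestine, a log2 difference from colon of 3.61 ± 0.30 (SE, adjusted p = 0.00255). *Smoc2*, a matricellular protein, had 5.70, 5.78 and 5.6 and 3.95, 3.63 and 4.11, a difference of 1.80 ± 0.20 (SE, adjusted p = 0.00543). *Olfm4*, a stem cell marker of the small intestine, had 0.72, 1.29 and 1.58 in adenomas, -6.74, -7.20 and 1.94 in colon and 2.79, 1.88 and 1.16 in small intestine and was called only without colon replicate 3 (log2 difference 8.17, adjusted p = 0.00018). Colon replicate 3 lay above all adenomas for it. *Rgmb*, a BMP co-receptor, was lower without colon replicate 3. *Ascl2* (3.79, 3.85 and 3.54 against 3.42, 2.03 and 1.72) and *Prom1* (7.25, 7.44 and 7.24 against 5.39, 6.49 and 5.19) did not pass the threshold. Of 10 genes of cell division, all had a difference above 0, with a median of 1.08, and 1 was called (2 without colon replicate 3, with *Plk1*). This was *Mcm5*, a subunit of the replicative helicase, with 3.68, 3.86 and 3.70 in adenomas and 2.40, 2.52 and 2.21 in colon, a difference of 1.37 ± 0.18 (SE, adjusted p = 0.00845). *Top2a* (1.49 ± 0.25, SE), *Plk1* (1.27 ± 0.19), *Cdk1* (1.24 ± 0.30) and *Bub1* (1.15 ± 0.17) had adjusted p from 0.0118 to 0.0469.

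Of the genes of gastric and pyloric glands, 9 of 13 tested were higher in adenomas and 1 was lower, with a median of 7.03 (7.45 without colon replicate 3), and the counts were the same without that array. The size of this median depended on the treatment of dim signals, being 3.47 with normexp background correction, 3.59 in the authors' table and 4.21 over genes with probes well above background on all 6 arrays. *Tff1*, a trefoil peptide of the gastric pit, had levels of 5.81, 6.35 and 6.01 in adenomas and -6.76, -3.83 and -5.68 in colon, where 1 of 3 arrays was well above background, a log2 difference of 11.48 ± 0.72 (SE, adjusted p = 0.00133). *Tff2*, the trefoil peptide of pyloric glands and mucous neck cells, had 6.94, 7.28 and 6.17 and -3.96, -1.04 and -5.63, with 2 of 3 colon arrays well above background, a difference of 10.34 ± 1.12 (SE, adjusted p = 0.00503). *Anxa10*, an annexin of stomach epithelium, had 5.73, 5.61 and 4.92 in adenomas, was not well above background on any colon array and was at least 855-fold higher (adjusted p = 0.000446). Such a bound sets the adenoma mean against the lowest signal well above background on each colon array. By the same measure *Aqp5*, a water channel of secretory glands, was at least 919-fold higher, *Muc6*, the gland mucin of the stomach, at least 157-fold, *Gkn2*, a gastrokine, at least 29.6-fold, and *Pgc*, a pepsinogen, at least 17-fold. *Muc5ac*, the surface mucin of the stomach, differed by 3.34 ± 0.29 (SE, adjusted p = 0.00283) with 2 of 3 colon arrays well above background. No adenoma overlapped a colon array for any of these 9 genes including *Gkn3*. Apart from *Gkn3*, they were tested only because every adenoma array was well above background. That filter favored higher levels and no overlap in adenomas, so neither is separate support. In small intestine the 3 arrays had -6.97, -6.10 and -0.58 for *Tff1*, -6.99, -3.51 and -0.84 for *Aqp5* and -7.02, -6.20 and -0.52 for *Anxa10*, so that small intestine replicate 3 was the highest of them, below every adenoma. Not all stomach genes followed, as *Capn8*, a calpain of gastric surface cells, was lower (-3.86, -3.49 and -3.83 in adenomas, -1.57, -1.54 and -1.91 in colon, difference -2.05 ± 0.21, SE, adjusted p = 0.00419), and *Gkn1* (-3.22, -3.65 and -3.09 against -1.44, -2.28 and -4.22), *Vsig1*, a stomach adhesion protein (1.89, 2.20 and 2.05 against 0.65, -0.42 and -5.69), and *A4gnt* were not called. *Cldn18*, the stomach claudin, was well above background on 1 adenoma array and no colon array and was not tested.

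Of 10 genes of regenerating or fetal-like epithelium, 3 were higher in adenomas, among them *Clu* and *Il33*, and without colon replicate 3 *Ly6a*, a surface antigen, was lower in addition. *Clu*, clusterin, had levels of 8.90, 9.18 and 8.72 in adenomas, 4.72, 4.62 and 5.21 in colon and 1.91, 3.07 and 3.91 in small intestine, a log2 difference of 4.09 ± 0.24 (SE, adjusted p = 0.00116). *Il33*, an alarmin cytokine, had 4.56, 4.30 and 4.35 and -0.34, -1.90 and 0.74, a difference of 4.90 ± 0.64 (SE, adjusted p = 0.00818). The groups did not overlap for either gene. *Anxa8*, an annexin, had 5.16, 5.09 and 4.98 in adenomas and 5.54, 4.28 and -1.43 in colon, so that colon replicates 1 and 2 lay within 1 log2 unit of an adenoma and colon replicate 3 lay with small intestine (-1.70, 0.14 and -0.36). *Spp1*, osteopontin, had 1.96, 1.32 and 0.26 and -5.92, -1.03 and 0.29 and was not called (adjusted p = 0.22). Among 9 EGF receptor family genes and ligands tested none was called with all arrays, with a median difference of 1.19. *Btc*, betacellulin, had -0.12, -0.44 and -0.57 in adenomas and -3.08, -2.86 and -4.49 in colon (difference 3.1 ± 0.45, SE, adjusted p = 0.0109) and was called without colon replicate 3 (adjusted p = 0.000953). *Ereg*, epiregulin, had 2.79, 2.29 and 1.98 and -2.22, -0.19 and 0.78 (adjusted p = 0.0575) and *Nrg1*, neuregulin, 1.54, 1.66 and 1.55 and -1.74, 0.24 and -2.04 (adjusted p = 0.0355), with adenomas above colon on every array in both, as for 20.0% of all genes tested. Of 17 genes of the BMP and TGF-beta pathway 1 was called, *Inhbb*, a subunit of activins, with 1.88, 1.40 and 1.76 in adenomas and -3.93, -2.55 and -3.70 in colon, a difference of 5.08 ± 0.40 (SE, adjusted p = 0.00224). *Inhba*, the other activin subunit, had 1.80, 1.5 and 0.85 and -4.62, -2.02 and -5.45 (adjusted p = 0.0147), and it and *Bmp7* (3.70, 3.94 and 3.92 against -0.21, 1.36 and 1.22, adjusted p = 0.0104) were among 5 genes called without colon replicate 3.

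**Figure D4:**
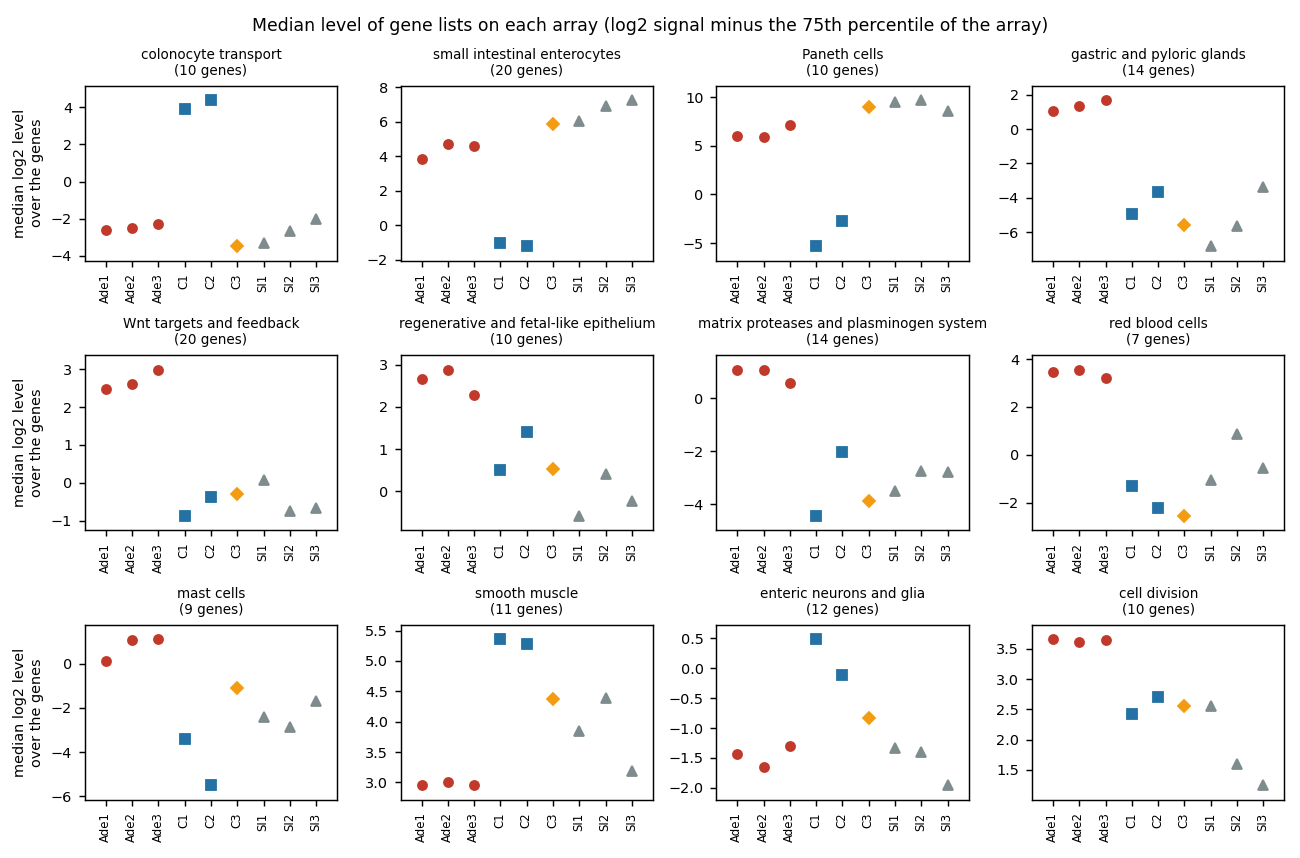
Median scaled log2 signal over the genes of 12 lists on each adenoma (Ade, red circles), colon (C1 and C2, blue squares; C3, orange diamond) and small intestine (SI, grey triangles) array; the vertical axes differ between panels. C3 lies with the small intestine arrays for the colonocyte, enterocyte and Paneth cell lists and near C1 and C2 for the Wnt target list, in which the adenomas have 2.48, 2.61 and 2.98 and the colon arrays -0.87, -0.37 and -0.30.

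Matrix proteases and the plasminogen system, which cut extracellular matrix and fibrin, had 6 of 13 genes tested higher in adenomas, none lower and a median difference of 3.31, which was 1.85 with normexp and 2.06 in the authors' table. Without colon replicate 3, 8 were higher. *Mmp10*, stromelysin 2, had levels of 3.85, 3.66 and 2.94 in adenomas, -6.50, -4.27 and -5.65 in colon, where 1 of 3 arrays was well above background, and -1.35, -1.07 and -1.08 in small intestine, a log2 difference from colon of 8.95 ± 0.59 (SE, adjusted p = 0.00153). *Mmp13*, a collagenase, had 2.0, 1.48 and 0.60 and -5.57, -3.45 and -5.68, also with 1 colon array well above background, a difference of 6.26 ± 0.69 (SE, adjusted p = 0.00517). *Timp1*, an inhibitor of these proteases, had 3.35, 3.35 and 3.29 in adenomas and -2.35, -0.36 and -1.11 in colon, a difference of 4.60 ± 0.49 (SE, adjusted p = 0.00491). The adenoma values of *Timp1* differed little among themselves and lay well above colon replicate 2, the highest colon array. *Mmp9*, a gelatinase, was at least 8.51-fold higher (adjusted p = 0.00184), and *Plaur*, the urokinase receptor, which joins *Plat* as a called member, had 3.85, 3.68 and 2.89 and -0.52, 0.66 and 0.36 (3.31 ± 0.40, SE, adjusted p = 0.00685). In 5 of the 9 listed genes with a promoter, 300 bases as above, the letters TGACTCA, the consensus of AP-1, were found on either strand, against 5.20% of all promoters, and in 3 of 11 gastric gland genes with a promoter (*Anxa10*, *Capn8* and *Gkn1*). The 21 bases around each match in the protease list follow, with the match in capitals and 5′ to 3′ along the plus strand, on which all 5 genes lie.
*Mmp10* (chr9:7502272-7502292): acccatgTGAGTCAtgcttag
*Mmp13* (chr9:7272472-7272492): aaagtggTGACTCAtcactat
*Mmp3* (chr9:7445769-7445789): gcaattaTGAGTCAgttttcg
*Mmp12* (chr9:7347323-7347343): tcaacagTGAGTCAgatagag
*Plaur* (chr7:24462407-24462427): ctggagcTGACTCActcttta
The matches stood at positions -69 to -35 from the start sites. *Mmp10*, *Mmp13*, *Mmp3* and *Mmp12* are neighbors on chromosome 9 and may not be separate cases. Genes were counted but the share is of single promoters, and whether matches are more frequent in this list was not tested. *Mmp10*, *Mmp13* and *Plaur* were called as higher, *Mmp3* had -0.31, -0.87 and -1.23 in adenomas and -5.59, -2.61 and -4.78 in colon (adjusted p = 0.0357), and *Mmp12*, well above background on 2 adenoma arrays and no colon array, was not tested. In the promoters of 19 enterocyte genes the letters were not found.

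Red blood cell genes were higher in adenomas, with 5 of 6 tested called (all 6 without colon replicate 3) and a median difference of 5.33. *Hbb-bt* had levels of 6.11, 6.23 and 6.12 in adenomas, 0.23, 0.20 and -0.11 in colon and 0.74, 2.45 and 1.25 in small intestine, with a log2 difference from colon of 6.05 ± 0.18 (SE, adjusted p = 0.00023). *Alas2*, the heme synthesis enzyme of erythroid cells, had 0.77, 0.93 and 1.05 and -3.97, -4.06 and -5.36, a difference of 5.38 ± 0.40 (SE, adjusted p = 0.00197). The adenomas lay above all colon and small intestine arrays in both. For *Hbb-bt* the arrays of adjacent tissue had 5.36 and 4.74, below the adenomas but far above colon. *Hba-a2* (4.46 ± 0.25, SE), *Hba-a1* (5.28 ± 0.30) and *Hbb-b2* (5.46 ± 0.36) were also called, though the globin copies are nearly identical and their probes may share transcripts. Of 12 endothelial genes *Cdh5*, the cadherin of vessels, was called, with 2.04, 1.28 and 1.29 in adenomas and -2.28, -0.76 and -1.92 in colon, a difference of 3.19 ± 0.45 (SE, adjusted p = 0.00982). *Tek* (-0.36, -1.31 and -1.88 against -5.79, -2.43 and -5.20), *Eng* (0.69, 0.80 and 0.97 against -1.85, -0.20 and -1.66) and *Vwf* (2.83, 2.99 and 3.08 against 1.04, 1.95 and 0.12) were not called. They did not overlap between the groups, with adenomas above colon, as for 20.0% of all genes tested. None of 11 extracellular matrix genes was called with all arrays. *Col1a1*, a chain of collagen type I, had 4.16, 4.30 and 4.47 in adenomas and 1.66, 3.0 and 1.63 in colon (2.21 ± 0.40, SE, adjusted p = 0.0212), while *Postn*, periostin, lay the other way with -0.20, -0.35 and -0.32 and 1.96, 2.23 and 0.68 (-1.92 ± 0.42, SE, adjusted p = 0.0361) and was lower without colon replicate 3 (adjusted p = 0.000734).

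Markers of mast cells, which store proteases in granules, had a median difference of 5.62, with 2 of 8 tested called as higher and 4 without colon replicate 3. The median was 3.54 with normexp, 3.71 in the authors' table and 3.59 over probes well above background on all 6 arrays. *Cpa3*, the mast cell carboxypeptidase, had levels of 0.10, 1.55 and 2.05 in adenomas, was not well above background on any colon array and was at least 46.8-fold higher (adjusted p = 0.00198). *Fcer1a*, the IgE receptor, was at least 23.1-fold higher (adjusted p = 0.00946). *Mcpt1*, a protease of mucosal mast cells, had 4.26, 5.83 and 5.72 in adenomas, -3.41, -3.84 and 0.96 in colon and -0.74, -2.09 and 3.08 in small intestine, a difference of 7.37 ± 1.30 (SE, adjusted p = 0.0196) with all arrays and 8.90 ± 0.51 (SE, adjusted p = 0.000471) without colon replicate 3. For these proteases adenoma replicate 1 was the lowest adenoma, and colon replicate 3 lay above the other colon arrays for *Mcpt1* and *Mcpt2* (4.06, 5.39 and 5.03 in adenomas, -5.88, -5.49 and 0.25 in colon). Of the neutrophil and interleukin-1 genes, 2 of 7 tested were higher. *S100a9*, a calprotectin subunit, had 1.62, 1.53 and 1.93 and -6.33, -3.95 and -3.64, a difference of 6.34 ± 0.71 (SE, adjusted p = 0.00538), and *S100a8*, its partner, was at least 12.6-fold higher (adjusted p = 0.00116). *Il1b*, interleukin-1 beta, had 0.94, 0.87 and 0.85 in adenomas and -4.56, -2.20 and -2.62 in colon and missed the threshold with all arrays (adjusted p = 0.0118) but was called without colon replicate 3 (adjusted p = 0.00769). Defining granule genes did not follow, as *Camp* had -3.41, -3.24 and -3.58 and -2.59, -3.04 and -2.75 and *Mpo* and *Ngp* were not well above background on any colon array and were so on 2 and 1 adenoma arrays.

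Of 15 chemokines tested, *Ccl2* and *Cxcl14*, a chemokine of epithelia and stroma, were higher and *Ccl6* was lower in adenomas. *Ccl2*, which attracts monocytes, had levels of 1.61, 1.41 and 0.65 in adenomas and -4.62, -2.31 and -3.13 in colon, a log2 difference of 4.57 ± 0.61 (SE, adjusted p = 0.00866). *Ccl6*, a chemokine of myeloid cells, had 3.28, 3.36 and 3.34 and 6.44, 6.61 and 5.72, a difference of -2.93 ± 0.27 (SE, adjusted p = 0.0033). The neutrophil attractants *Cxcl5* (1.18, 1.09 and 0.50 against -2.01, -3.49 and -5.58), *Cxcl1* (1.12, 1.15 and -0.72 against -2.02, -3.74 and -5.67) and *Cxcl2* had adjusted p of 0.0232, 0.0417 and 0.0123. Adenomas lay above colon without overlap in each, as for 20.0% of all genes tested, and of these *Cxcl5* was called without colon replicate 3. Without that array 4 chemokines were higher and 2 lower, the others gained being *Ccl25*, a chemokine of the small intestine (higher), and *Ccl28*, a mucosal chemokine (lower). Acute phase and antimicrobial genes split, with 3 of 12 higher and 2 lower, and *Reg3a* also higher without colon replicate 3. *Reg1*, a regenerating islet-derived lectin, had 8.36, 8.49 and 7.0 in adenomas, -4.53, -1.70 and 0.13 in colon and 1.2, 3.06 and 3.95 in small intestine, a difference from colon of 9.98 ± 1.16 (SE, adjusted p = 0.00613). *Saa3*, a serum amyloid A gene, rose from -0.76, 0.15 and -0.041 in colon to 2.42, 2.90 and 2.08 in adenomas (2.68 ± 0.33, SE, adjusted p = 0.00715). Its relative *Saa2* moved the other way, with 7.26, 6.79 and 9.08 in colon and no adenoma well above background, and was at least 5882-fold lower (adjusted p = 0.000631). *Saa1* and *Saa2* are close copies and may not be told apart by their probes. Colon replicate 3 had the highest *Saa1* and *Saa2* of all 6 arrays.

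B cell and follicle genes were lower in adenomas, with 6 of 12 called, none higher and a median of -5.15, and 10 lower without colon replicate 3. The median was -2.67 with normexp, -2.65 in the authors' table and -2.57 over probes well above background on all 6 arrays. *Ms4a1*, the B cell antigen CD20, was not well above background in any adenoma, had 0.076, 0.76 and 3.02 in colon and was at least 67.3-fold lower (adjusted p = 0.00607). *Fcmr*, the IgM receptor, had -3.40, -3.50 and -3.65 in adenomas and 0.74, 1.08 and 3.30 in colon, a log2 difference of -5.22 ± 0.67 (SE, adjusted p = 0.00767). *Cxcr5*, the chemokine receptor that guides B cells into follicles, was at least 20.6-fold lower and *Glycam1*, a ligand on the vessels through which lymphocytes enter nodes, was not well above background in any adenoma and had -2.83, -0.40 and -0.94 in colon (adjusted p = 0.00512). *Cxcl13*, the ligand of *Cxcr5*, was also lower. In 10 of the 12 genes colon replicate 3 was the highest colon array, and the small intestine had -3.80, -5.95 and -6.25 for *Ms4a1* and -3.53, -5.94 and -5.47 for *Fcmr*. *Jchain*, a product of plasma cells, did not follow, with 5.12, 5.44 and 5.33 in adenomas and 1.58, 5.43 and 2.23 in colon. None of 9 T cell, 11 macrophage or 12 interferon-induced genes tested was called, with or without colon replicate 3, and their median differences were 0.54, 0.68 and -0.75. Colon replicate 1 had far lower levels than the other colon arrays for some interferon-induced genes, such as *Oas2*, a sensor of viral RNA (-3.91, 3.27 and 0.55 in colon, -0.42, -1.03 and -1.5 in adenomas). Of 9 MHC class II genes *H2-Ob*, which regulates peptide loading in B cells, was lower, with -2.92, -2.86 and -2.88 and -0.89, -0.52 and -0.75 (-2.17 ± 0.18, SE, adjusted p = 0.00268). *H2-Aa*, an antigen presenting chain, had 0.72, 1.38 and 1.13 in adenomas, 0.94, 2.03 and 4.88 in colon and 5.89, 4.24 and 3.88 in small intestine, with colon replicate 3 alone among the colon arrays near small intestine. *H2-Oa*, the partner of *H2-Ob*, was lower without colon replicate 3.

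Smooth muscle genes were lower in adenomas without exception in direction. Of the 11 genes, 7 were called with all arrays and 10 without colon replicate 3, and the median difference was -2.52. All adenoma arrays lay below all colon arrays for each of the 11, against 18.8% of all genes tested. *Cnn1*, calponin, had levels of 4.60, 4.66 and 4.43 in adenomas, 7.75, 7.84 and 6.83 in colon and 5.74, 7.03 and 5.01 in small intestine, a log2 difference from colon of -2.91 ± 0.31 (SE, adjusted p = 0.0047). *Myh11*, the smooth muscle myosin, had 1.81, 1.72 and 1.92 in adenomas, 4.74, 4.71 and 4.21 in colon and 3.68, 4.27 and 2.65 in small intestine, a difference of -2.74 ± 0.22 (SE, adjusted p = 0.00232). *Synm* (-2.87 ± 0.27, SE), *Des* (-2.70 ± 0.33) and *Actg2* (-2.68 ± 0.22), an intermediate filament linker, desmin and an enteric actin, were similar. The log2 of the summed level of the list was 8.23, 7.97 and 7.66 in adenomas and 10.22, 10.19 and 9.90 in colon. Of 10 genes of enteric neurons and glia tested, 1 was lower with all arrays, and of 12 tested without colon replicate 3, 4 were lower, with medians of -1.03 and -1.52. The further 3 were *Gfap* (an intermediate filament of glia), *Ret* (a receptor of enteric neurons) and *Nos1* (the neuronal nitric oxide synthase). *Snap25*, a synaptic protein, was not called and had 2.13, 3.22 and 3.23 in adenomas and 4.94, 5.23 and 5.47 in colon (-2.35 ± 0.36, SE, adjusted p = 0.0121). The part that muscle and nerve in the tissue pieces have in other differences was not tested.

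Among the 8 genes of colonocyte transport tested, 3 were lower with all arrays and all 9 tested without colon replicate 3, with medians of -2.89 and -5.96. *Car1* and *Aqp8* of this list were among the genes by which that array was set apart, so the calls gained without it are no separate support. The 3 called with all arrays were *Aqp4*, described above, *Slc6a14* and *Slc26a3*. *Slc6a14*, an amino acid transporter, was not well above background in any adenoma, had 2.99, 2.73 and -0.60 in colon and was at least 91.7-fold lower (adjusted p = 0.00503). *Slc26a3*, the chloride exchanger of the colon surface, had 0.51, 0.72 and 0.77 in adenomas, 3.90, 4.16 and 2.65 in colon and 3.28, 2.84 and 2.81 in small intestine, a log2 difference from colon of -2.91 ± 0.41 (SE, adjusted p = 0.00991). Every adenoma was below both normal tissues for *Slc26a3*. *Aqp8* had 1.71, 1.30 and 0.46 in adenomas, between the levels of colon replicates 1 and 2 and of colon replicate 3, and its difference was -1.93 ± 3.02 (SE, adjusted p = 0.728) with all arrays and -5.68 ± 0.39 (SE, adjusted p = 0.00073) without that array. *Cyp2c55*, a cytochrome P450 of the colon, had -0.65, -0.36 and -1.46 in adenomas, 6.29, 5.37 and -5.51 in colon and 3.50, 2.19 and 3.26 in small intestine. *Atp12a*, the colonic proton pump, was well above background on 1 adenoma and 2 colon arrays (1.86, 1.07 and -4.20 in colon) and was tested only without colon replicate 3 (difference -6.51, adjusted p = 0.000392).

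None of 20 genes of small intestinal enterocytes was called with all arrays, while 13 were higher and 2 lower without colon replicate 3, with medians of 1.74 and 4.59. *Fabp6* and *Mttp* of this list were among the genes by which that array was set apart. *Apoa4*, an apolipoprotein of lipid absorption, had levels of 5.64, 6.61 and 5.75 in adenomas, -5.90, -5.50 and 4.66 in colon and 5.26, 8.97 and 9.65 in small intestine, and differences of 8.25 ± 2.78 (SE, adjusted p = 0.112) and 11.70 ± 0.34 (SE, adjusted p = 0.000107) with all arrays and without colon replicate 3. *Lct*, lactase, had 4.58, 5.48 and 6.12 in adenomas, -4.78, -4.84 and 3.96 in colon and 6.15, 9.61 and 9.63 in small intestine. *Apoa1*, a lipoprotein component, had 5.38, 6.37 and 5.77 in adenomas, -5.94, -5.75 and 7.08 in colon and 8.34, 9.22 and 9.34 in small intestine. In these genes colon replicates 1 and 2 lay far below everything else. The 2 lower genes were *Fabp6* (adenomas -1.53, -1.17 and -1.53, difference -3.27 without colon replicate 3) and *Slc10a2*, the bile acid transporter of the ileum (adenomas -1.17, -0.92 and -0.44, colon 2.80, 3.1 and 7.13, difference -3.79). On both, small intestine replicate 1 was high and the other small intestine arrays were lower by at least 7 log2 units, with 5.80, -1.70 and -1.87 for *Slc10a2*. *Slc5a1*, the sodium-glucose transporter, did not follow the list, with -0.45, -0.38 and -0.012 in adenomas, 0.36, 0.36 and 3.18 in colon and 3.17, 4.69 and 5.16 in small intestine.

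Of 10 transcription factors that mark regions of the gut, 1 was higher and 1 lower with all arrays, and of 17 tested without colon replicate 3, 3 were higher and 6 lower. *Onecut2*, a factor of the proximal small intestine, had levels of 4.93, 5.40 and 4.98 in adenomas, -4.78, -3.63 and -1.86 in colon and -2.14, 1.64 and 3.17 in small intestine and was higher than in colon by 8.53 ± 0.71 (SE, adjusted p = 0.00263). *Gata4*, also proximal, had 2.60, 2.49 and 2.44 and -5.27, -2.64 and -0.064 (adjusted p = 0.0444, and 0.00292 without colon replicate 3), and *Pdx1*, of duodenum and pylorus, 0.093, 0.063 and -2.64 and -4.48, -4.20 and -4.29, with 1 colon array well above background (adjusted p = 0.0344). *Cdx1*, a factor of the whole intestine that is strongest distally, was lower, with 4.36, 4.56 and 4.90 in adenomas, 7.28, 7.12 and 6.47 in colon and 6.74, 6.15 and 6.17 in small intestine (-2.35 ± 0.28, SE, adjusted p = 0.00673). *Hoxb13*, *Hoxa13* and *Hoxa11* were not well above background in any adenoma or in colon replicate 3, and were tested only without that array, with adjusted p of 0.00018, 0.000109 and 0.00108. *Hoxd11* was well above background on all 3 colon arrays (-0.99, -4.64 and -0.26) and on no adenoma (adjusted p = 0.0379).

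**Figure D5:**
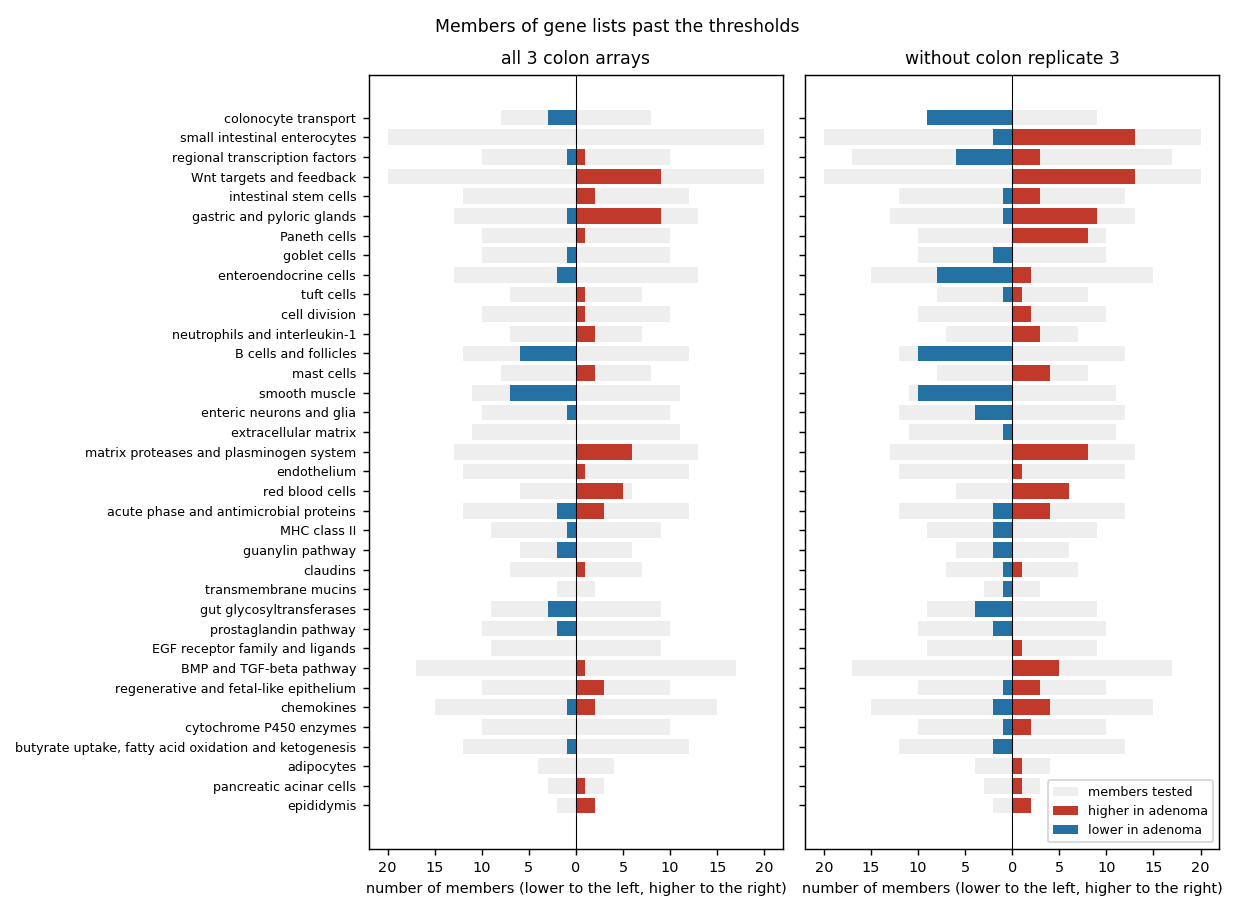
Number of genes per list called as higher (red, to the right) or lower (blue, to the left) in adenomas, drawn over the number tested (grey, both ways), with all 3 colon arrays (left panel) and without colon replicate 3 (right panel), for the lists with at least 1 called gene in either panel. The enterocyte bar goes from 0 called genes in the left panel to 13 higher and 2 lower in the right panel, whereas the gastric gland bar has 9 higher and 1 lower in both.

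The secretory lineages did not move together. Of 10 Paneth cell genes 1 was called with all arrays and 8 without colon replicate 3. The levels of this list were also a ground for setting that array apart. The gene called with all arrays was *Defa21*, with 3.22, 3.07 and 5.09 in adenomas, -6.58, -7.13 and -5.52 in colon and 9.87, 9.83 and 7.81 in small intestine, at least 276-fold higher (adjusted p = 0.00152), and unlike for the other alpha-defensins colon replicate 3 was not well above background for it. *Defa26* had 5.10, 4.57 and 6.34 in adenomas and -6.75, -6.19 and 7.91 in colon and *Defa29* 6.96, 6.70 and 8.50 and -5.11, -3.86 and 9.03. Adenomas were below all small intestine arrays for these 3 genes. Of 10 goblet cell genes *Clca1*, a secreted metalloprotease of mucus, was lower, with 6.25, 6.42 and 5.34 in adenomas, 8.62, 8.95 and 8.24 in colon and 9.07, 8.56 and 9.35 in small intestine (-2.60 ± 0.35, SE, adjusted p = 0.00913). *Muc2*, the main mucin of the gut, had 5.95, 5.80 and 6.38 and 7.43, 8.59 and 6.87 (-1.59 ± 0.46, SE, adjusted p = 0.0766), and *Atoh1*, the factor that specifies secretory cells, 0.68, 0.62 and 1.18 and 3.55, 3.79 and 1.47 (adjusted p = 0.0819, and 0.00106 without colon replicate 3, where it was also called). *Retnlb*, a resistin-like antimicrobial protein, ranged widely in colon (1.03, 7.27 and 7.97). Among hormones of enteroendocrine cells, 2 of 13 genes tested were lower with all arrays, *Gcg* and *Pyy*, while 8 were lower and 2 higher without colon replicate 3. *Gcg*, the precursor of glucagon-like peptides, had -2.17, -2.44 and -1.23 in adenomas, 3.15, 3.25 and 1.95 in colon and 3.48, 2.01 and 1.16 in small intestine, a difference from colon of -4.73 ± 0.47 (SE, adjusted p = 0.00402), and *Pyy*, peptide YY, 0.52, -0.016 and -1.18 in adenomas, 4.65, 3.72 and 3.11 in colon and 3.44, 2.20 and 1.99 in small intestine (-4.05 ± 0.56, SE, adjusted p = 0.00952). The hormones of the upper gut *Gip* (1.72, 1.89 and 1.53 in adenomas, -6.66, -6.68 and 1.11 in colon) and *Ghrl* (2.29, 2.14 and 1.70 against -1.05, -0.76 and 0.36) were those higher without colon replicate 3. Of 7 tuft cell genes tested *Avil*, an actin-binding protein, was higher (2.64, 2.54 and 2.56 against -2.36, -1.35 and -3.49, 4.98 ± 0.52, SE, adjusted p = 0.00454), while *Dclk1* had 0.083, 0.068 and -0.36 in adenomas and -0.90, -0.62 and -3.62 in colon. Without colon replicate 3, *Hpgds*, a prostaglandin D synthase, was tested as well and was lower.

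Of 9 glycosyltransferases tested, which build the glycans of the epithelial surface, 3 were lower (4 without colon replicate 3), namely *B3galt5*, *St6galnac6* and *B3gnt7*, which builds lactosamine chains on mucins and had -3.25, -2.97 and -3.04 in adenomas, 1.90, 1.04 and 0.81 in colon and -2.55, -2.91 and -1.78 in small intestine (-4.34 ± 0.32, SE, adjusted p = 0.00195). For each of the 3 all colon arrays, replicate 3 included, were above every other array shown. In the guanylin pathway, which drives fluid secretion, *Guca2a*, guanylin, was lower, with 4.25, 4.96 and 5.56 in adenomas, 8.78, 9.04 and 8.68 in colon and 9.05, 9.01 and 8.88 in small intestine (-3.92 ± 0.35, SE, adjusted p = 0.00303), as was its receptor *Gucy2c* (2.04, 1.73 and 2.20 against 3.67, 3.56 and 3.80, -1.69 ± 0.20, SE, adjusted p = 0.00672). *Guca2b*, uroguanylin, had 4.98, 6.43 and 6.63 in adenomas and 4.41, 4.05 and 8.42 in colon and was not called. *Cldn2*, a pore-forming claudin of the crypt, was the 1 of 7 claudins called as higher (4.77, 4.71 and 4.90 against 3.15, 3.08 and 2.86, 1.76 ± 0.18, SE, adjusted p = 0.00421), and *Cldn8*, a sealing claudin of the colon, had -2.70, -2.94 and -3.25 and 4.24, 2.99 and -1.96 and was lower without colon replicate 3 (adjusted p = 0.000533). Of the transmembrane mucins, *Muc13* had 7.23, 7.40 and 7.30 in adenomas and 8.83, 8.55 and 10.14 in colon (adjusted p = 0.0415) and was lower without colon replicate 3 (adjusted p = 0.00346).

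Of 10 genes of the prostaglandin pathway, *Hpgd*, which breaks prostaglandins down, and *Ptgis*, the prostacyclin synthase, were lower. *Hpgd* had levels of 0.67, 0.99 and 1.05 in adenomas, 4.33, 3.83 and 3.60 in colon and 4.07, 4.92 and 4.66 in small intestine, a log2 difference from colon of -3.02 ± 0.25 (SE, adjusted p = 0.00268), with every adenoma below both normal tissues. *Ptgs2*, the inducible cyclooxygenase, had 0.58, 0.48 and -0.82 and -4.72, -1.06 and -4.31, with 1 colon array well above background, and was not called (adjusted p = 0.0789). Its adenomas lay above colon without overlap, as for 20.0% of all genes tested. *Slc5a8*, which carries butyrate into colonocytes, was the 1 gene called of 12 for butyrate uptake, fatty acid oxidation and ketogenesis. It had -6.28, -5.49 and -3.13 in adenomas, where 1 array was well above background, 3.16, 2.52 and 3.54 in colon and 2.86, 2.01 and 1.22 in small intestine, a difference of -8.04 ± 0.81 (SE, adjusted p = 0.00408). None of 10 cytochrome P450 genes tested was called with all arrays. *Cyp3a11* (2.37, 2.70 and 1.92 in adenomas, -4.46, -7.16 and -0.32 in colon, 4.46, 6.31 and 7.14 in small intestine) and *Cyp2b10* (1.89, 2.65 and 2.83 in adenomas, -5.18, -7.01 and 1.39 in colon, 3.72, 6.6 and 6.97 in small intestine), drug-metabolizing enzymes induced by nuclear receptors, were higher without colon replicate 3, and *Cyp2c55*, described above, was lower (adjusted p = 0.000612).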

How the data were processed

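RNA was hybridized to SurePrint G3 Mouse 8x60K one-color Agilent arrays. The deposited intensity values of each array were background-subtracted and detrended by Feature Extraction and not normalized between arrays. A table deposited by the authors also holds log2 values normalized between arrays, by a method not given in the sources used here, which served as an alternative. Its columns with the authors' own comparisons (fold changes and p-values) and 28 further columns of flags and detection calls per sample were not used. Samples were grouped by the tissue in the labels.

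Here, control spots were left out, as were outlier spots among the remaining spots (103 to 206 per array). Spots of 1 probe were averaged over 55681 probes, and log2 processed signals were taken minus the 75th percentile of each array. Of the probes, 26582 were named through their accession in RefSeq and the others kept the name in the file. A probe was tested where every array of 1 or both groups had it well above background (29174 probes), by the lmFit and eBayes functions of limma 3.58.1 (R 4.3.3) on the 6 arrays with no covariate and with Benjamini-Hochberg adjustment over all of them. A gene dim in 1 group thus entered the test only through the group where it was high, which favored a call in that direction. A gene was called at a log2 difference of at least 1.2 and an adjusted p of at most 0.01, the thresholds in the methods of the study, and read from its brightest probe. The procedure was run on simulated data with equal spread in both groups, unlike these arrays, so the simulation does not show how well it does here. With pieces from 1 mouse in 1 group, p-values measure only the spread between these samples.

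The comparison, the 40 gene lists and the rules were chosen with earlier results of these data known. Named genes were, in each direction, the 12 called genes with the largest difference, well above background and unsaturated on all 6 arrays without overlap; the same for 8 genes without colon replicate 3; up to 5 members per list with the largest difference in size, and any member of lists with under 8 members or that shows how colon arrays differ; and the 10 genes on which colon replicate 3 lay farthest above or below the other colon arrays. *Axin2*, *Notum*, *Rnf43*, *Apcdd1*, *Tcf7*, *Cd44*, *Tnfrsf19*, *Muc6*, *Muc5ac*, *Gkn2*, *Pgc*, *Capn8*, *Gkn1*, *Vsig1*, *A4gnt*, *Cldn18*, *Plaur*, *Mmp3*, *Mmp12*, *Mpo*, *Ngp*, *Cxcl14*, *Cxcl13* and *Jchain* were named after their values were seen, to complete a count, to show a member that differed or because of a promoter match. Promoters of 52 of 68 genes of 4 lists were found in RefSeq and searched for 6 motifs on both strands. The motif ATCAAAG was found in 3.73% of all promoters, ATCAAAGG (which holds it) in 1.07%, TTTAT in 40.0%, CAAAGTCCA in 0.475%, TGACTCA in 5.20% and TGANTCA (which includes the one before) in 7.81%.

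Alternatives were another background correction (normexp), quantile normalization, the authors' table, other filters on dim probes, all 5 groups in the fit, slide or replicate number as a block, array weights, an intensity trend, each array left out and other thresholds. Some items are not reported here.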

Additional observations from a re-analysis of the deposited data

How the results depend on the processing

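Of the 456 higher and 344 lower genes, the counts stayed within 1.5 times under normexp, quantile normalization, the authors' table, an intensity trend, no minimum fold and any probe of a gene. They were 184 and 59 with every probe tested, 234 and 306 with probes well above background on all 6 arrays, 910 and 637 with all 5 groups in the fit, 1320 and 1259 with array weights (colon replicate 3 had a weight of 0.113, the others 0.684 to 3.13) and 1118 and 964 at an adjusted p of at most 0.05. With slide as a block they were 58 and 8. A replicate block gave 45 and 8, but the numbers do not pair the samples, as the deviations of same-numbered arrays correlated with r = 0.0681, -0.223 and 0.0321. Leaving out 1 array gave 4 to 1171 higher and 0 to 1517 lower genes, the highest without colon replicate 3. Without adenoma replicate 2, where limma called 0 lower genes, 5919 probes had an unadjusted p under 0.05. Members of lists called numbered 87, and 53 with every probe, 52 with probes well above background on all arrays, 18 with the slide block, 17 with the replicate block, 185 with array weights and 3 to 174 with 1 array left out. The cause was not tested.

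Of the 100 genes of the lists and rankings that were called, none turned its sign under these alternatives, which their selection on the same arrays largely fixed. Of them 89 stayed called under each of normexp, quantile normalization and the authors' table, 21 under the slide block, 25 under the replicate block, and 8, 3, 12, 36, 62 and 100 without adenoma replicates 1 to 3 and colon replicates 1 to 3. *Gkn3* and *Hbb-bt* stayed called under all of them. Among genes not called, the difference turned sign for *Ret* under quantile normalization (0.11, and -1.45 to 0.83 with 1 array left out), and with 1 array left out for *Aqp8* (-5.68 to 0.024), *Sis* (-0.14 to 4.35), *Enpep* (-0.72 to 4.01) and *Gcnt1* (-3.16 to 0.34). The medians of 7 of the 40 lists, those of neutrophils, T cells, acute phase, guanylin, cytochrome P450, epididymis and sex-linked genes, turned sign under some alternative. The median of 10 Paneth cell genes was 6.86, and 4.87 with normexp and 2.66 with probes well above background on all arrays. The signal of colon replicate 3 was the lowest, with a 75th percentile of 236 intensity units, and the fewest probes of all arrays were well above background on it.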

Other observations

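Lists of further tissues were also read. Of 6 epididymis genes, *Gpx5* and *Gpx6*, glutathione peroxidases, were higher in adenomas, and *Lcn5*, *Lcn8*, *Adam7* and *Crisp1*, other genes that define it, were not well above background on any adenoma or colon array. *Gpx5* and *Gpx6* were well above background on no colon array and were tested only through the adenomas, which favored a higher call. *Gpx5* had levels of 1.92, 2.39 and 1.59 in adenomas, -6.72, -7.12 and -5.65 in colon and -5.39, -6.07 and -5.70 in small intestine and was at least 77.7-fold higher than in colon (adjusted p = 0.000846). *Gpx6* had -0.36, -0.37 and -1.50 in adenomas and -5.92, -6.04 and -4.70 in colon and was at least 11.9-fold higher (adjusted p = 0.00408). On the same adenoma arrays *Xist*, the transcript of the inactive X chromosome, had levels of 0.39, 0.42 and 0.44 and *Eif2s3y*, of the Y chromosome, was not well above background.

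Of 8 genes of pancreatic acinar cells, *Pnliprp1*, a lipase-related protein, was higher, with 2.66, 3.83 and 3.63 in adenomas and -1.93, -4.40 and -3.80 in colon (log2 difference 6.75 ± 0.68, SE, adjusted p = 0.00408). The digestive enzymes *Amy2a5* and *Try4* were well above background on 2 adenoma arrays each and *Amy2a5*, an amylase, had 0.83, -0.67 and -5.77 in adenomas. Of 4 adipocyte genes tested none was called with all arrays, and *Cidec*, a lipid droplet protein, was higher without colon replicate 3. *Adipoq*, adiponectin, had -6.55, -5.48 and -3.96 in adenomas, -3.99, -3.39 and 0.36 in colon and -0.016, 1.74 and -5.85 in small intestine, with colon replicate 3 the highest colon array.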
